A study of Mus musculus with 22 samples.

Results

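The genes of the IL-1, TNF and inflammasome system were followed in RNA from CD11b+ cells of the neonatal mouse brain. They are 9 genes chosen by name, with earlier results of these data known. The genes are Il1a, Il1b, Il1rn, Tnf, Il6, Il18, Nlrp3, Casp1 and Casp4. All 9 were found among the 56691 genes that both deposited tables list by Ensembl identifier. On GRCm39, Il1a, Il1b and Il1rn lie on chromosome 2, with Il1a (ENSMUSG00000027399.2) at chr2:129140291-129152098, Il1b (ENSMUSG00000027398.14) at chr2:129206490-129213059 and Il1rn (ENSMUSG00000026981.16) at chr2:24226865-24241506. Chromosome 9 holds Casp1 (ENSMUSG00000025888.7) at chr9:5298508-5307290, Casp4 (ENSMUSG00000033538.14) at chr9:5308828-5336783 just beyond it, and Il18 (ENSMUSG00000039217.14) at chr9:50466081-50493633. The others are Tnf (ENSMUSG00000024401.15) at chr17:35418357-35420983, Il6 (ENSMUSG00000025746.12) at chr5:30218112-30224979 and Nlrp3 (ENSMUSG00000032691.15) at chr11:59432394-59457782. All are protein-coding, and all 9 passed the filter on low counts in each comparison below.

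IL-1 alpha and IL-1 beta are cytokines that bind the same receptor on neighbouring cells, and the IL-1 receptor antagonist, encoded by Il1rn, occupies that receptor without signaling. IL-1 beta and IL-18 are made as inactive precursors and are released after caspase-1, the product of Casp1, cuts them inside an inflammasome, a protein complex built on a sensor such as NLRP3. Caspase-11, the product of mouse Casp4, senses bacterial lipopolysaccharide inside the cell. TNF and IL-6 are secreted without this step. Microglia are a main source of IL-1 and TNF in the brain, and transcripts of these genes rise quickly when the cells are activated, also by handling.

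All animals were wild-type mice of the outbred strain CF-1, and CD11b+ cells were enriched on magnetic beads from dissociated brain. In the HIE groups, a model of hypoxic-ischemic encephalopathy, the dams had received LPS late in gestation and the pups a short severe hypoxia on P6. The controls came from dams given saline and had no hypoxia. The labels name a further group hypoxia, whose treatment is not described in the sources used here. The P7 data hold 4 animals each of HIE and control and the P14 data 4 animals each of HIE, control and hypoxia, so that 22 libraries came from 20 animals. The P7 controls carry day labels from P8 to P11, which differ from the day that the study and the protocol give, and the study's day was used. Animal names share prefixes, taken here as litters, and each prefix belongs to 1 treatment with 2 animals, so litter and treatment cannot be told apart. The 4 HIE P7 animals are all labelled male, whereas the other 4 groups hold 2 males and 2 females each. On P7 all HIE names begin with N and all control names with P6H, so name series and treatment cannot be told apart. No P14 name begins with N, so in HIE the name series differs between the days as well. The P7 and P14 libraries are in separate tables, so day and table cannot be told apart either.

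Levels are given as CPM, a gene's counts relative to the total of its library, scaled over all 20 animals by the TMM method, which corrects for differences in RNA composition between libraries. Totals ran from 70191584 to 83469067 counts in the P7 libraries and from 29751540 to 46404123 counts in the P14 libraries. In these libraries 3 counts, taken as the lowest usable level, corresponded to between 0.0359 and 0.101 CPM. The lowest value of any of the 9 genes was 0.168 CPM, from 6 counts of Il1rn in the hypoxia animal P6H7-8F.

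The labels call the cells monocytes (CD11b+), and the protocol says that microglia were enriched. A microglia-marker score, the mean log2 CPM of 16 genes such as P2ry12 and Tmem119, lay between 8.78 and 9.79 in 18 animals. It was 6.27 and 5.65 in the control P7 animals P6H63-7 and P6H63-8, which stood apart from every other library. Of the 16 markers, 16 were higher in the HIE P7 animals than in these P6H63 controls, with a median log2 fold change of 3.31 (edgeR quasi-likelihood test, Benjamini-Hochberg adjusted). None of the 16 markers was at 0 in any animal. The score of 6 monocyte markers such as Ccr2 and Ly6c2 ran from 1.95 to 4.35, with its lowest values also in the P6H63 animals. Markers of astrocytes (10 of 10), endothelial cells (6 of 6) and choroid plexus (6 of 6) were lower in the HIE P7 animals than in the P6H63 controls by the same test, while those of border macrophages (7 of 7) and neutrophils (7 of 8) were higher. Of 8 neuron markers 6 were lower and 1 higher, and of 6 monocyte markers 4 were higher and 1 lower. Over all tested genes 27.7% were higher and 30.8% lower. Fold changes on P7, those of controls between days and the HIE effect between days are therefore given with and without them. Counts of P7 groups that do not overlap, P7 fits with the score, levels per kilobase, ratio tests and correlations include them. In bulk samples, fewer cells of a type and less RNA per cell cannot be told apart.

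The 250 bases before the transcription start were read from GRCm39 for 3 cytokine genes that were higher on P7 than on P14 in the HIE animals, Il1a, Il1b and Tnf, and for Il6 and Il18, which did not pass that test. Each is written 5′ to 3′ on the gene's own strand, and capitals mark matches to the AP-1 motif TGANTCA, the kappa-B motif or the PU.1 core GAGGAA (or TTCCTC on the other strand).
Il1a (chr2:129152099-129152348, minus strand): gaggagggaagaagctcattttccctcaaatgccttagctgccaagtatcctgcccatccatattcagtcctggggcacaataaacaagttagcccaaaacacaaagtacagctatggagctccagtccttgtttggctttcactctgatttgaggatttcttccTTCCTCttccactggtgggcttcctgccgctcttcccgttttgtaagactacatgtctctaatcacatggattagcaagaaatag
Il1b (chr2:129213060-129213309, minus strand): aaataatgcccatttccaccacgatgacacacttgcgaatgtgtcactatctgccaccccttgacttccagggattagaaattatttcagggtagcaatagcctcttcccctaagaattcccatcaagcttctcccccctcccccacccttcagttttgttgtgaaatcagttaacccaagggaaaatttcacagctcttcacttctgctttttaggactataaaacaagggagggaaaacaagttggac
Tnf (chr17:35420984-35421233, minus strand): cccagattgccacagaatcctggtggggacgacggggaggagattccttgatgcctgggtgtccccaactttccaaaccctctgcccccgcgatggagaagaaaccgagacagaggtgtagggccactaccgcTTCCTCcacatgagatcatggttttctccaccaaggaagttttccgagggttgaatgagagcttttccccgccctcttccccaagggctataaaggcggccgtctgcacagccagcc
Il6 (chr5:30217862-30218111, plus strand): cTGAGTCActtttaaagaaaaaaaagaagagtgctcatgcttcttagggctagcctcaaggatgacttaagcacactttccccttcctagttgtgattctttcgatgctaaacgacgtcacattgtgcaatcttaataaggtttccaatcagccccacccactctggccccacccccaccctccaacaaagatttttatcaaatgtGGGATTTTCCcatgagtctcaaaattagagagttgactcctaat
Il18 (chr9:50476424-50476673, plus strand): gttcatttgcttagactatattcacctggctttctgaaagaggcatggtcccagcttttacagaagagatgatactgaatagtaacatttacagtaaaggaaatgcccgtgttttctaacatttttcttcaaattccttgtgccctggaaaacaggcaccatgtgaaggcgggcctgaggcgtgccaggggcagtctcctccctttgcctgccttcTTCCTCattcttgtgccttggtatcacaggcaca
Il1a, Tnf and Il18 each held 1 PU.1 core, the Il6 stretch held 1 AP-1 match and 1 kappa-B match, and Il1b held none of the 3. The start used is that of the canonical transcript in GENCODE release M39. Searched on both strands of all 9 stretches, the PU.1 core was found in 5 genes (also Nlrp3 and Casp1), the kappa-B motif in 2 (also Casp4, where 2 of its 3 matches overlap) and the AP-1 motif in 2 (also Il1rn). Among 21614 protein-coding genes, 23.0% of such stretches held the PU.1 core, 7.61% the kappa-B motif and 6.19% the AP-1 motif. A match describes the sequence and is not evidence of binding.

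On P7, the cytokine genes Il1a, Il1b and Tnf were by median highest in the HIE animals, intermediate in the P6H55 controls and lowest in the P6H63 controls. Il1a was at 293, 388, 229 and 242 CPM in the HIE animals N5-3, N5-4, N8-3 and N8-4. It was at 134 and 192 CPM in the P6H55 controls and at 27.3 and 15.8 CPM in the P6H63 controls. All 4 HIE values were above all 4 controls, and the gap between the 2 control litters was larger than that between the HIE animals and P6H55.

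Il1b was at 156, 203, 187 and 178 CPM in the HIE animals. The P6H55 controls had 125 and 129 CPM and the P6H63 controls 24.5 and 17.98 CPM. The order of the groups was the same as for Il1a, again without overlap between HIE and control. Tnf, which encodes another early cytokine, had 135, 205, 246 and 209 CPM in HIE, 152 and 174 CPM in P6H55, and 39.7 and 17.4 CPM in P6H63. Here HIE and P6H55 overlapped, since N5-3 lay below both P6H55 animals.

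The genes of the inflammasome behaved in a like manner. Nlrp3, the sensor, was at 247, 278, 262 and 246 CPM in HIE, at 177 and 198 CPM in P6H55 and at 47.5 and 21.5 CPM in P6H63. Casp1 was at 21.8, 22.8, 24.8 and 23.3 CPM in HIE, at 19.8 and 15.5 CPM in P6H55 and at 3.72 and 2.11 CPM in P6H63. Casp4 was at 8.12, 11.5, 11.1 and 10.1 CPM in HIE, at 6.89 and 6.40 CPM in P6H55 and at 3.43 and 1.69 CPM in P6H63. For each of the 3 genes the lowest HIE animal lay above the highest control. Within the HIE group Nlrp3 and Casp1 varied little, with an SD of 14.9 CPM around a mean of 258 CPM and of 1.26 CPM around 23.2 CPM (n = 4).

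Il18, the gene of the other cytokine that caspase-1 cuts, was at 11.4, 11.5, 12.2 and 12.3 CPM in HIE, at 9.48 and 10.3 CPM in P6H55 and at 7.01 and 7.70 CPM in P6H63. As a ratio, it differed least of the 9 genes between the control litters. Il1rn was at 5.88, 3.89, 8.13 and 7.32 CPM in HIE, at 5.22 and 2.90 CPM in P6H55 and at 1.78 and 0.937 CPM in P6H63. Il6, which is made by activated microglia but also by astrocytes and endothelial cells, was at 2.42, 2.77, 5.79 and 3.41 CPM in HIE, at 2.74 and 4.24 CPM in P6H55 and at 0.762 and 0.971 CPM in P6H63. For Il1rn and Il6 the HIE animals overlapped with P6H55 and not with P6H63.

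**Figure D1:**
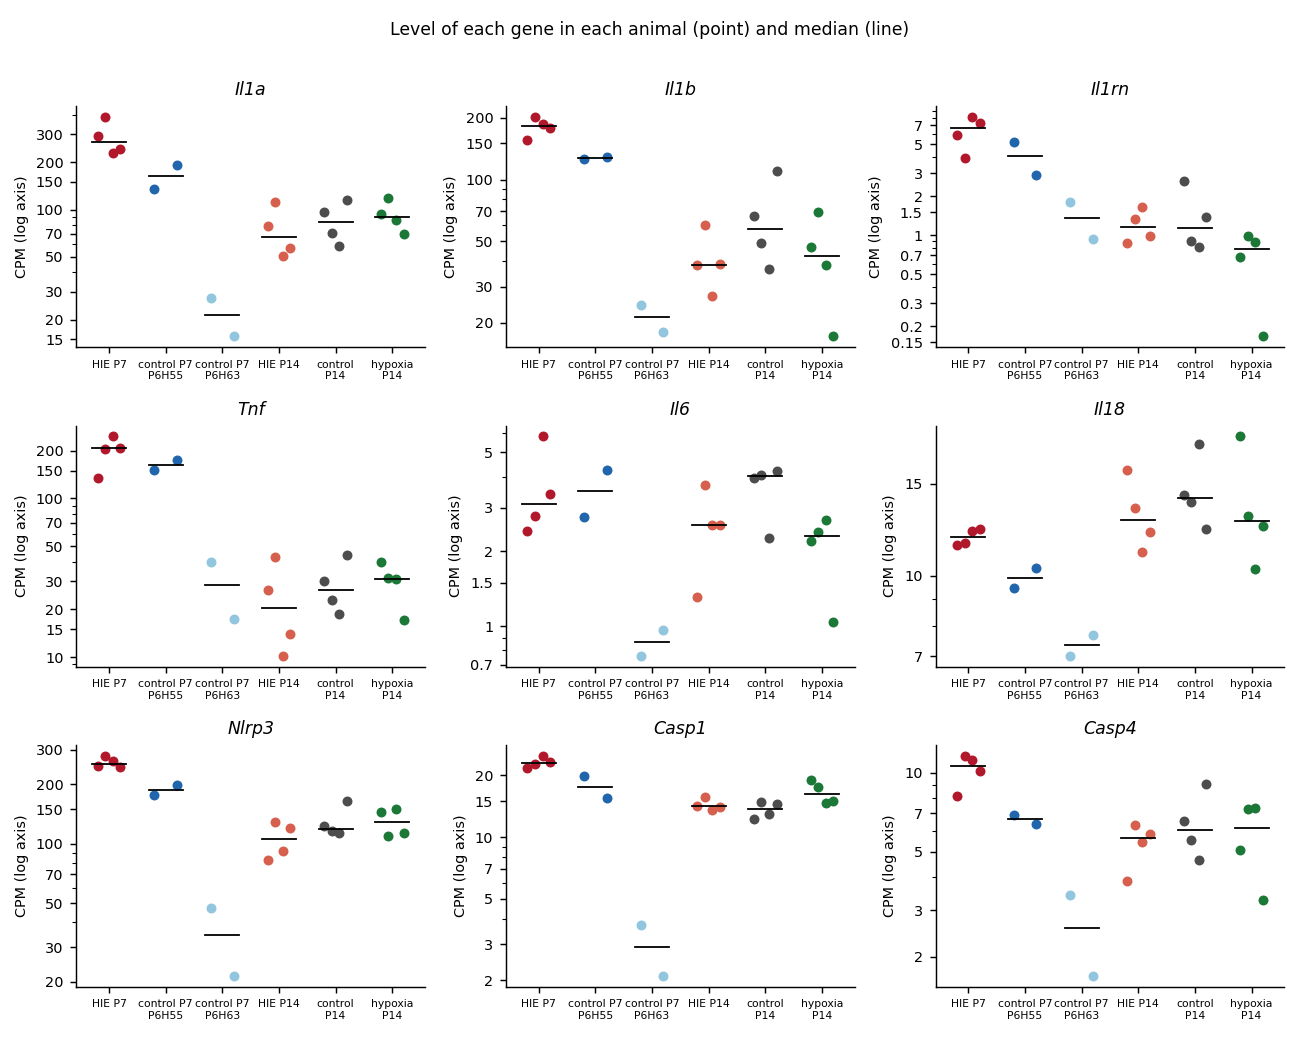
CPM (log axis) of each of the 9 genes in each of the 20 animals, with the 4 P7 controls split by litter; points are animals and lines are medians. The 2 P6H63 controls are the lowest P7 animals for all 9 genes, and the HIE P7 animals are the highest P7 animals for Il1a, Il1b, Il18, Nlrp3, Casp1 and Casp4.

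Against all 4 controls, none of the 9 genes passed an adjusted p of 0.05 in the edgeR quasi-likelihood test, where 0.0666% of 22517 tested genes did. All 9 log2 fold changes were positive, with a median of 1.16 against -0.08 over all tested genes. Those of the 16 microglia markers were all positive too, with a median of 1.14. Of the 9 genes, Il1a had the largest, 1.62 (SE 0.73, adjusted p = 0.192, edgeR), and Il18 the smallest, 0.45 (SE 0.15, adjusted p = 0.150, edgeR). At an unadjusted p under 0.05 there were 3 genes, Il1rn, Il18 and Casp4, where 27.3% of all genes had one. DESeq2 called 2 genes higher in HIE, Il18 (0.47, SE 0.16, adjusted p = 0.0336) and Casp4 (1.16, SE 0.43, adjusted p = 0.0484), where it called 4.33% of all genes higher, and edgeR's exact test called 0, where it called 0.764% higher. Without the control P6H55-7 the quasi-likelihood test called Il1rn and Casp4, and the share of all genes called higher was then 8.42%. In 6 of the 9 genes (Il1a, Il1b, Il18, Nlrp3, Casp1 and Casp4) every HIE animal was above every control, which held for 9.22% of the tested genes.

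Microglia-marker scores moved with these differences, from 9.11 to 9.33 in the HIE P7 animals, 8.97 and 8.78 in P6H55 and 6.27 and 5.65 in P6H63. When the score was subtracted from each gene's log2 CPM, none of the 9 had groups that did not overlap. The subtraction left HIE wholly above control in 0.0444% of all genes and wholly below in 48.0%. With the score as a covariate, the fitted HIE difference of Il1b was 0.22 (SE 0.12, adjusted p = 0.400, edgeR) and that of Casp1 was 0.10 (SE 0.13, adjusted p = 0.766, edgeR), and those of Tnf and Il6 changed sign to -0.03 and -0.11. The largest fitted differences were those of Il1rn (0.46, SE 0.37, adjusted p = 0.602, edgeR), Il1a (0.44, SE 0.22, adjusted p = 0.396, edgeR) and Casp4 (0.41, SE 0.23, adjusted p = 0.429, edgeR), none of which passed.

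**Figure D2:**
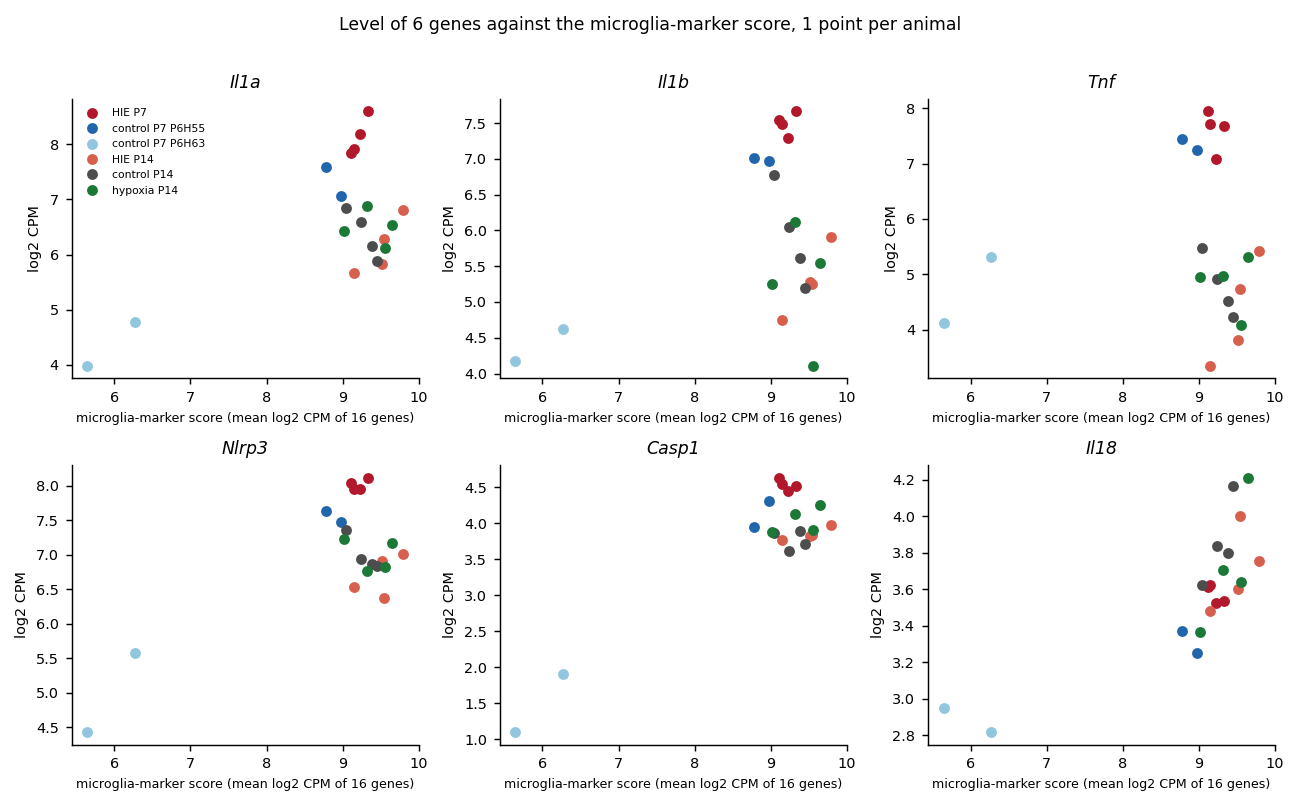
log2 CPM of Il1a, Il1b, Tnf, Nlrp3, Casp1 and Il18 against the microglia-marker score (mean log2 CPM of 16 genes), 1 point per animal. The 2 P6H63 controls sit at scores of 5.65 and 6.27 and low levels. The other P7 animals, with scores near 9, lie above all P14 animals for Il1a, Il1b, Tnf and Nlrp3 but not for Casp1 or Il18. Within HIE, every P7 animal was above every P14 animal in 24.0% of all tested genes. The share for the split shown here was not computed.

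Set against each control litter separately, the 9 genes gave different answers. Against the P6H63 controls all 9 were higher in HIE by the edgeR quasi-likelihood test, where 27.7% of 23780 tested genes were higher. Il1a was 13.6-fold higher (log2 fold change 3.77, SE 0.33, adjusted p = 5.8e-05, edgeR), Il1b 8.70-fold, Casp1 8.11-fold, Nlrp3 7.62-fold and Tnf 7.11-fold. The median of the 9 was 2.83, below the 3.31 of the microglia markers in the same comparison. Il18 again changed least, 1.65-fold (log2 fold change 0.72, SE 0.10, adjusted p = 0.00049, edgeR).

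Against the P6H55 controls, none of the 9 passed the same test, where 0.112% of 23274 genes did. All 9 log2 fold changes were still positive, with a median of 0.45 against -0.02 over all tested genes and 0.33 for the 16 microglia markers, all of which were positive too. The values were 0.81 (SE 0.24, adjusted p = 0.222, edgeR) for Il1a, 0.61 (SE 0.16, adjusted p = 0.204, edgeR) for Casp4, 0.50 (SE 0.11, adjusted p = 0.176, edgeR) for Il1b and 0.45 (SE 0.09, adjusted p = 0.154, edgeR) for Nlrp3. Those 4 and Casp1 and Il18 had unadjusted p-values under 0.05 in this fit, where 16.5% of all genes did. Il6 (0.03, SE 0.37), Il18 (0.25, SE 0.09) and Tnf (0.28, SE 0.21) had the smallest values.

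DESeq2 called 4 of the 9 higher than in P6H55, Il1a, Il1b, Nlrp3 and Casp4, where it called 2.38% of all genes higher. The exact test called Il1b and Nlrp3, where it called 0.739% of all genes higher. The quasi-likelihood test without P6H55-7 called Nlrp3 and Casp1, where it called 5.07% higher. Immediate early genes such as Fos and Egr1, which rise during dissociation, had scores of 10.48 to 10.69 in HIE, of 10.3 and 10.4 in P6H55 and of 8.97 and 8.63 in P6H63. Against P6H63, 10 of 10 of them were higher in HIE, with a median log2 fold change of 1.65, and against P6H55 none passed, with a median of 0.14. Against P6H55 all 8 neutrophil markers had negative values (median -0.63) and none passed, and 1 of 6 choroid plexus markers was lower (median -1.06). The part of these lists in the differences was not tested.

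**Figure D3:**
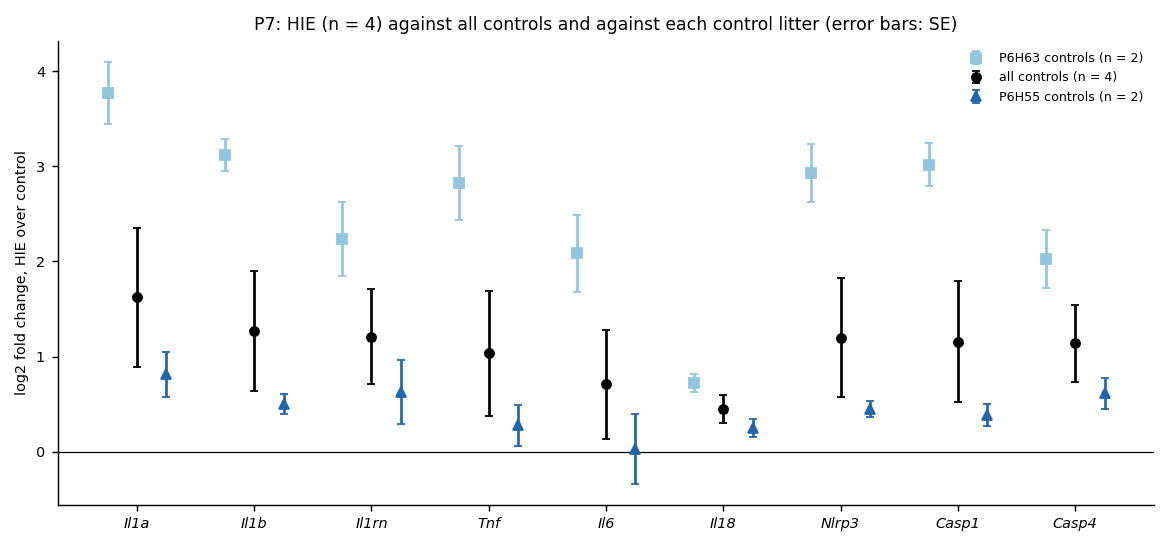
log2 fold change (HIE over control, error bars SE) of the 9 genes on P7 against the 2 P6H63 controls, all 4 controls and the 2 P6H55 controls. Values against P6H63 run from 0.72 to 3.77, and those against P6H55 run from 0.03 to 0.81.

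Genes that act with these 9 were counted from lists fixed by name. Against all 4 controls none of 15 tested IL-1 and IL-18 receptor and signaling genes, 13 TNF receptor and signaling genes, 16 inflammasome genes and 9 IL-6 receptor and signaling genes passed the edgeR quasi-likelihood test, where 0.0666% of all genes did. Against P6H63, 9 of 16, 11 of 13, 14 of 16 and 6 of 9 were higher and 3, 0, 1 and 2 were lower, where 27.7% of all genes were higher and 30.8% lower. The highest of the IL-1, inflammasome and TNF lists were Il1rl1, the IL-33 receptor (log2 fold change 3.44), Nlrp1b, an inflammasome sensor (3.23), and Tnfrsf1b, the second TNF receptor (2.88). Il33, an IL-1 family cytokine of astrocytes and oligodendrocytes, was lower by the same test, with a log2 fold change of -1.65, and the other genes called lower were Il1r1, Sigirr, Gsdme, Cish and Ptpn11. Against P6H55 none of the genes of the 4 lists passed, where 0.112% of all genes did.

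By P14, the HIE, control and hypoxia animals overlapped for each of the 9 genes. Il1b, which had the largest fitted difference between HIE and control, was at 38.2, 59.7, 26.9 and 38.7 CPM in HIE, at 66.1, 48.8, 36.7 and 109.5 CPM in controls and at 46.8, 69.1, 38.2 and 17.2 CPM in hypoxia. The control P6H8-7M alone lay above all HIE and hypoxia animals. Tnf was at 26.4, 42.7, 10.2 and 14.0 CPM in HIE, at 30.0, 22.8, 18.8 and 44.2 CPM in controls and at 39.5, 31.3, 31.1 and 17.1 CPM in hypoxia. Its lowest values were those of the HIE litter P6H12.

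Between HIE and control none of the 9 genes passed on P14 (0 at an unadjusted p under 0.05, and 0 by DESeq2 and by the exact test), where 0.00478% of 20934 genes did by the edgeR quasi-likelihood test. The log2 fold change was -0.70 for Il1b (SE 0.33, adjusted p = 0.535, edgeR), -0.54 for Il6 (SE 0.32, adjusted p = 0.664, edgeR) and -0.31 for Nlrp3 (SE 0.16, adjusted p = 0.597, edgeR). Casp1 was the only gene with a positive value, 0.05 (SE 0.11). The median of the 9 was -0.28 against 0.01 over all genes. No gene had HIE and control groups that did not overlap, against 5.49% of all tested genes in either direction.

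Animals of both name series, P4H and P6H, were present among HIE and controls on P14, and the means of Tnf and Il1a differed in opposite directions in them. In the P4H animals mean Tnf was 34.6 CPM in HIE and 24.4 CPM in controls, and in the P6H animals it was 12.1 CPM and 33.5 CPM (n = 2 each). Il1a went the same way, with 94.99 CPM in HIE and 77.7 CPM in controls in the P4H animals, and 53.6 CPM and 92.9 CPM in the P6H animals. Il1b had 48.95 CPM and 51.4 CPM in the P4H animals, and 32.8 CPM and 79.1 CPM in the P6H animals. With the name series as a block none of the 9 passed the test. The difference between the series was not tested.

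Between the hypoxia animals and either other group none of the 9 genes passed the edgeR quasi-likelihood test, where 0.00955% of the tested genes passed against controls and 0.00955% against HIE. The hypoxia animals were all of the P6H name series, whereas HIE and controls came from both series. With the P6H animals alone, again none of the 9 passed in either comparison. In those fits 0 of 22026 genes passed against controls and 0.0136% of 22064 against HIE. Il6 was at 2.20, 2.39, 2.66 and 1.04 CPM in hypoxia, at 3.95, 4.06, 2.26 and 4.19 CPM in controls and at 1.32, 3.71, 2.54 and 2.56 CPM in HIE. It was the only one of the 9 with an unadjusted p under 0.05 against controls, where 9.53% of all genes had one, with a fitted difference of -0.83 on the log2 scale (SE 0.32, adjusted p = 0.500, edgeR). DESeq2 and the exact test called 0 in both comparisons, and against HIE no gene had an unadjusted p under 0.05.

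Il1rn was at 0.684, 0.983, 0.888 and 0.168 CPM in hypoxia and at 2.63, 0.905, 0.818 and 1.38 CPM in controls, which differed by -1.10 on the log2 scale (SE 0.54, adjusted p = 0.550, edgeR). The hypoxia animal P6H7-8F had the lowest Il1a, Il1b, Il1rn, Tnf, Il6 and Casp4 of its group, whereas its Casp1 (15.0 CPM) and Il18 (12.4 CPM) lay within the range of the other 3. Casp1 was at 19.1, 17.5, 14.6 and 15.0 CPM in hypoxia, at 12.2, 14.8, 13.02 and 14.5 CPM in controls and at 14.2, 15.7, 13.6 and 14.1 CPM in HIE, and the groups overlapped (hypoxia against controls 0.25, SE 0.12, adjusted p = 0.543, edgeR). Scores of 8 neutrophil markers ranged from 1.88 to 4.51 within HIE and from 2.13 to 2.64 within controls on P14, and their part in the spread of these genes was not tested.

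From P7 to P14 the HIE animals had lower levels of most of these genes. Of the 9, 7 were higher on P7 in the edgeR quasi-likelihood test (Il1a, Il1b, Il1rn, Tnf, Nlrp3, Casp1 and Casp4), where 23.2% of 22579 genes were higher. In the same 7 every P7 animal was above every P14 animal, which held for 24.0% of all tested genes. DESeq2 and the exact test called 7 genes as well, where they called 24.2% and 22.9% of all genes higher, and so did each fit that left out 1 animal.

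Tnf differed most, 8.42-fold (log2 fold change 3.07, SE 0.40, adjusted p = 0.000198, edgeR), from 199 ± 46.2 CPM on P7 to 23.3 ± 14.7 CPM on P14 (SD, n = 4 each). Il1rn was 5.20-fold higher on P7, Il1b 4.38-fold and Il1a 3.84-fold. Among the inflammasome genes, Nlrp3 was 2.41-fold higher (258 ± 14.9 against 106 ± 21.8 CPM), Casp4 1.88-fold and Casp1 1.59-fold. Il6 (log2 fold change 0.48, SE 0.34, adjusted p = 0.273, edgeR) and Il18 (-0.17, SE 0.12, adjusted p = 0.286, edgeR) did not pass. The median of the 9 was 1.27 against -0.02 over all genes.

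Several marker lists also differed between the days. Of 16 microglia markers 2 were higher and 7 lower on P7 than on P14 in HIE, with a median of -0.29, and of 10 immediate early genes 10 were higher, with a median of 1.19. Of 7 border macrophage markers 4 were higher, with a median of 0.65. Lower on P7 were 4 of 6 endothelial, 4 of 6 choroid plexus, 6 of 10 astrocyte and 2 of 8 neutrophil markers, while 1 astrocyte marker was higher. Of 8 neuron markers 3 were higher and 3 lower, and of 6 monocyte markers 1 was lower. Over all tested genes 23.2% were higher and 22.8% lower on P7. The immediate early scores were 10.48 to 10.69 on P7 and 8.67 to 9.63 on P14 in HIE. The part of these lists in the P7 levels was not tested.

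In the controls the same comparison depended on the P6H63 animals. With all 4 animals a day, 1 of the 9 genes passed the edgeR quasi-likelihood test, Il18, which was lower on P7 (8.63 ± 1.53 against 14.6 ± 2.38 CPM, log2 fold change -0.81, SE 0.18, adjusted p = 0.0125), where 15.6% of 22320 genes were lower. Tnf was at 95.8 ± 78.7 CPM on P7 and 28.95 ± 11.2 CPM on P14 (log2 fold change 1.68, SE 0.68, adjusted p = 0.0856, edgeR), and DESeq2 and the exact test called it, where they called 23.1% and 18.8% of all genes higher. Without P6H63-8 the quasi-likelihood test called it too, where 14.1% were higher.

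With both P6H63 animals left out, 4 of the 9 passed. Tnf (log2 fold change 2.45, SE 0.29, adjusted p = 0.00114, edgeR), Il1a (0.89, SE 0.26, adjusted p = 0.0344, edgeR) and Nlrp3 (0.50, SE 0.16, adjusted p = 0.0434, edgeR) were higher on P7, where 16.2% of 22151 genes were higher. Il18 (-0.61, SE 0.18, adjusted p = 0.0363, edgeR) was lower, where 15.0% of genes were. Il1rn had 1.44 (SE 0.49, adjusted p = 0.0551, edgeR) and Il1b 0.92 (SE 0.36, adjusted p = 0.0844, edgeR). In this comparison 9 of 10 immediate early genes were higher on P7 (median 0.95), and 6 of 16 microglia markers were lower. After the microglia score was subtracted in each animal, all 4 control P7 animals were above all 4 control P14 animals for 6 genes, Il1a, Il1b, Il1rn, Tnf, Nlrp3 and Casp1, which held for 46.6% of all tested genes.

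**Figure D4:**
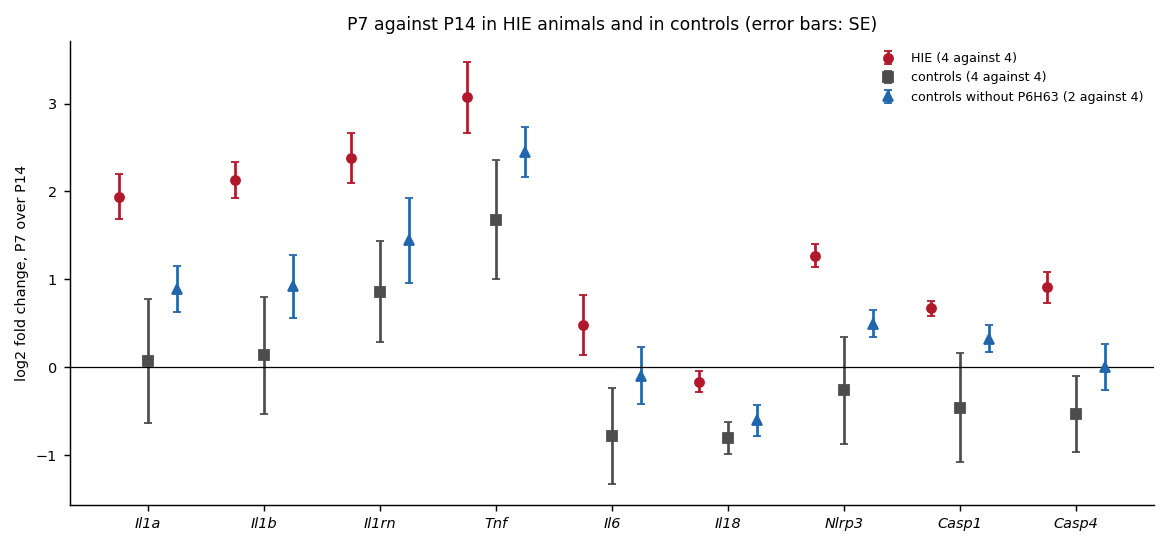
log2 fold change (P7 over P14, error bars SE) of the 9 genes in HIE animals, in all controls, and in controls without the P6H63 litter. Tnf is the highest of the 9 in each series, at 3.07, 1.68 and 2.45, and Il18 is below 0 in each.

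The HIE effect on P7 minus that on P14 was positive for all 9 genes and called for none (edgeR quasi-likelihood test), where 0.00405% of 24693 genes passed. It was 1.96 for Il1b (SE 0.74, adjusted p = 0.266, edgeR), 1.84 for Il1a (SE 0.80, adjusted p = 0.329, edgeR) and 1.41 for Casp4 (SE 0.48, adjusted p = 0.222, edgeR). At an unadjusted p under 0.05 there were 6 genes, where 13.9% of all genes had one, and DESeq2 called 0. The difference was also positive for 16 of 16 microglia markers (median 0.90), where the 9 genes had a median of 1.41. The same held for 7 of 7 border macrophage markers and 10 of 10 immediate early genes (medians 0.80 and 0.88). It held for 0 of 8 neutrophil, 0 of 6 endothelial and 0 of 6 choroid plexus markers, and no gene of these lists passed. Their part in the difference was not tested. Without the P6H63 animals the values were 1.19 for Il1b, 1.03 for Il1a and 0.89 for Casp4, with adjusted p-values of 0.462, 0.507 and 0.437 (edgeR).

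Among the related genes, those that were higher on P7 in HIE by the edgeR quasi-likelihood test included Ripk3, a kinase of necroptosis (log2 fold change 1.18), Fadd, the adaptor that links death receptors to caspase-8 (0.83), Tnfrsf1a, the first TNF receptor (0.79), and Irak1, a kinase below the IL-1 receptor (0.56). Of 13 TNF receptor and signaling genes 4 were higher and 2 lower, of 15 IL-1 and IL-18 genes 4 were higher and 0 lower, of 16 inflammasome genes 4 were higher and 2 lower, and of 9 IL-6 genes 1 was higher and 1 lower, where 23.2% of all genes were higher and 22.8% lower. Txnip, whose product binds thioredoxin and NLRP3, was lower on P7 in HIE (-0.95) and in controls (-1.41, and -0.84 without P6H63). Nlrp1a, another sensor, was lower in HIE (-0.76) and in controls (-1.86, and -1.14 without P6H63). In the controls, with 4 animals a day, 1 TNF gene was higher and 2 were lower on P7, 1 IL-1 and IL-18 gene was higher, 3 inflammasome genes were lower, and 1 IL-6 gene was higher and 1 lower, where 17.4% of all genes were higher and 15.6% lower. Without the P6H63 animals 4 TNF genes were higher and 2 lower, 2 IL-1 and IL-18 genes were higher, 3 inflammasome genes were lower and no IL-6 gene passed, where 16.2% of all genes were higher and 15.0% lower.

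Levels per kilobase of exon allowed the 9 genes to be ranked within a group. The length was that of all annotated exons of a gene together, 5536 bases for Il1rn and 2428 for Il6, and not that of 1 transcript. On P7 Tnf ranked first, with a mean of 121 CPM per kb in HIE and 58.5 in controls. On P14 Nlrp3 ranked first, with 26.15 CPM per kb in HIE, 31.8 in controls and 31.8 in hypoxia. Il1a, Il1b, Tnf and Nlrp3 took the first 4 ranks in all 5 groups, Casp1 and Il18 ranks 5 and 6, and Il1rn was the lowest, between 0.123 and 1.14 CPM per kb. The place of Il1rn below Il6 on P7 rested on this length. In CPM, mean Il1rn was above mean Il6 on P7 (6.31 against 3.60 in HIE, 2.71 against 2.18 in controls) and below it in each P14 group.

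The ratio of Tnf to Il1b, taken within each animal and so free of library scaling, separated the days. It was 0.866, 1.01, 1.31 and 1.17 in HIE P7 and 1.21, 1.35, 1.62 and 0.967 in control P7, where the P6H63 animals gave the last pair of values. On P14 it was 0.693, 0.715, 0.378 and 0.362 in HIE and 0.454, 0.467, 0.512 and 0.404 in controls. Every P7 animal was above every P14 animal of the same treatment. For single genes, the days did not overlap, in either direction, in 43.9% of tested genes in HIE and 37.1% in controls. The ratio was chosen after the levels had been seen, and the share over other ratios was not computed. The control P6H63-8 (0.967) lay within the range of the HIE and P6H55 animals on P7, and P6H63-7 (1.62) lay above it. The difference of the mean log2 ratio was 1.47 in controls and 1.08 in HIE, each with p = 0.0286 in a two-sided exact permutation test, the smallest that 4 against 4 animals allow, and an adjusted p of 0.171 over the 12 ratio tests.

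In the hypoxia animals the ratio was 0.844, 0.453, 0.814 and 0.989, which overlapped with both days. The ratio of Il1a to Il1b did not separate the days in either treatment. On P14 it was 2.05, 1.87, 1.88 and 1.46 in HIE and 1.46, 1.45, 1.61 and 1.05 in controls (difference of the mean log2 ratio 0.39, exact permutation p = 0.0571, adjusted p = 0.171). Its highest value was 4.05, in the hypoxia animal P6H7-8F. Between HIE and control no ratio passed this test on either day, with adjusted p-values from 0.171 to 0.561 (exact permutation).

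**Figure D5:**
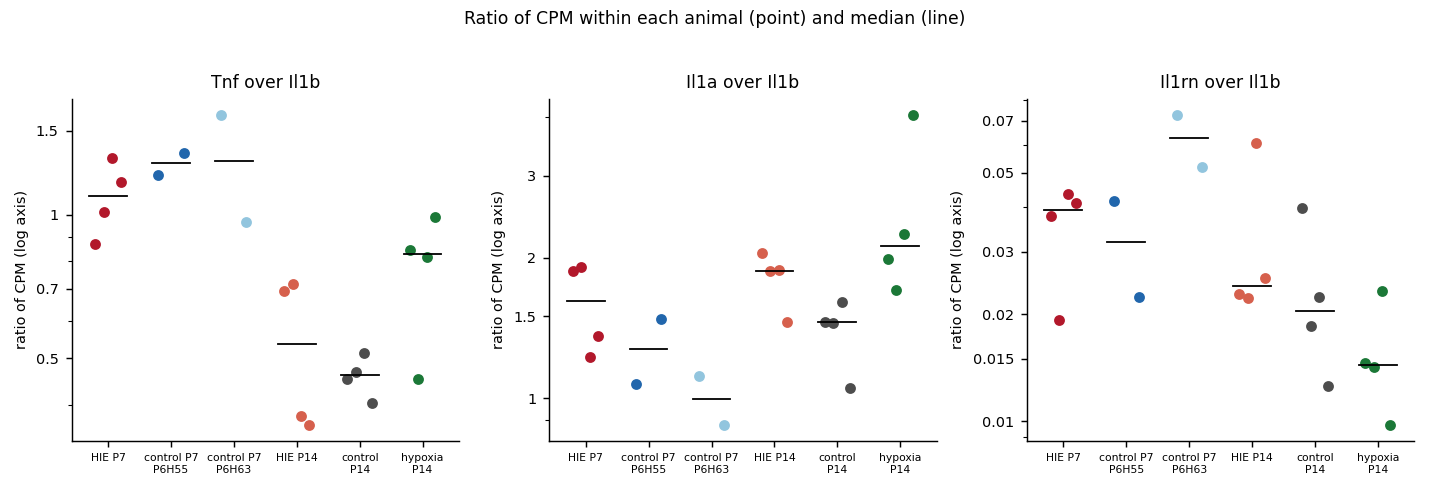
Ratio of CPM (log axis) of Tnf, Il1a and Il1rn over Il1b within each animal; points are animals and lines are medians. For Tnf over Il1b the 8 P7 animals lie between 0.866 and 1.62 and the HIE and control P14 animals between 0.362 and 0.715.

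In 2 HIE P14 animals, P4H1-6F and P6H12-11M, RNA had been sequenced in 2 libraries each, which were summed. Between the libraries of an animal the 9 genes differed by a ratio of 1.02 to 1.08 in P4H1-6F and of 1.01 to 1.29 in P6H12-11M, where Il6 differed most.

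The genes whose log2 CPM followed each of the 9 most closely over the 20 animals, after the mean of each day was removed, were named by rank. For Il1a they were Irf1, Gpr84 and Cd83 (Pearson r 0.982, 0.982 and 0.960), and for Nlrp3 they were Nfkbiz, Tnfaip3 and Etv3 (0.981, 0.980 and 0.977). Il1b was followed by Rasgef1b, Pim1 and Dusp2 (0.950, 0.948 and 0.947) and Tnf by Dusp2, Ier3 and Ccl12 (0.934, 0.929 and 0.924). Casp1 was followed by Il16, P2ry6 and Cd300a (0.993, 0.991 and 0.990), of which P2ry6 is one of the microglia markers. Il18 was followed less closely, by Trappc2l, Commd3 and Cuedc2 (0.893, 0.885 and 0.878), as were Il6 by Ptger4, Myo5a and Dusp5 (0.896, 0.871 and 0.857) and Il1rn by Sirpd, Nfil3 and Gvin-ps6 (0.868, 0.866 and 0.848). Casp4 was followed by Plekho2, Rasgef1b and Il1b (0.952, 0.936 and 0.925). These correlations are descriptions over 20 animals that include the 2 P6H63 controls, and the points share their library's scaling and microglia content.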

How the data were processed

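RNA of CD11b+ cells was sequenced by the authors after removal of ribosomal RNA with a stranded kit, mapped to GRCm39 with Sentieon's STAR and quantified with RSEM. The deposited values are expected counts per gene with no scaling for library size, which divide reads shared between near-identical genes. They were rounded to whole numbers, and the libraries of an animal were summed. Of the 56691 identifiers, 56017 matched GENCODE release M39. Groups followed the labels, with the study's day for the P7 controls.

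Counts were tested in R 4.3.3 with edgeR 4.0.16 and its quasi-likelihood test (default fit, TMM, the package's filter on low counts, Benjamini-Hochberg adjustment over all tested genes), fitted to the groups compared. DESeq2 1.42.0 and edgeR's exact test were alternatives, as were scaling by library size alone, the marker score or the name series in the fit and leaving out each animal. Log2 CPM used a prior count of 2. Ratios, chosen after levels had been seen, were compared by an exact permutation test over 70 relabellings (scipy 1.17.1). The quasi-likelihood test was tried on simulated counts without litters or differences in cell content, and the other procedures were not. The named genes were all 9 members, with the called genes of 4 related lists with the largest changes, or the most abundant where none was called, of which the text gives some. The members, lists and rules were chosen with earlier results of these data known. Nothing says whether 2 animals of a prefix were handled separately, and p-values measure only the spread between these animals. Counting error alone underlies the floor of 3 counts.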

Additional observations from a re-analysis of the deposited data

Results flagged for a closer look

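Il6 in the control P14 animal P4H4-7F, at 2.26 CPM, lay far below the other 3 controls, which had 3.95, 4.06 and 4.19 CPM. Its gap to the nearest was 0.904 of the group's whole range on the log2 scale. It was the only such value among 45 combinations of gene and group examined, and chance alone flags about 1 group in 20. The cause was not tested.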

How the results depend on the processing

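Log2 fold changes of the 9 genes (4 of them for the hypoxia comparisons) were refitted under each alternative. Of these, 1060 kept their direction and their side of the threshold, 17 changed sign, of which 1 also passed the threshold where the main test did not, and 17 others passed it without a change of sign. The 3 comparisons on P14, HIE on P7 against P14, the P6H63 comparison and the difference of the HIE effect between days gave the same number of called genes under each alternative tried. With DESeq2, 2 genes were called for HIE against control on P7, 4 against the P6H55 controls and 2 for controls on P7 against P14, and edgeR's exact test called 2 in each of the last pair. Leaving out 1 animal at a time gave 0 to 2 genes for HIE against control on P7, 0 to 2 against P6H55 (2 without P6H55-7 in both) and 1 to 2 for controls on P7 against P14. Leaving out 1 of 2 controls of a litter leaves 1 sample, which is assumed to vary like the HIE group. With the P6H63 controls left out, chosen after seeing the data, 4 genes were called for controls on P7 against P14, and Nlrp3 (0.495), Casp1 (0.325) and Casp4 (0.001) changed sign there. After subtraction of the microglia score 0 genes kept HIE and control apart on P7, and with the score as a covariate Tnf (-0.028) and Il6 (-0.106) changed sign. Scaling by library size alone turned Il6 against P6H55 to -0.027.

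With 1 animal left out at a time, Il6 against P6H55 ran from -0.301 to 0.389 and Il1rn for HIE against control on P14 from -0.476 to 0.199. For controls on P7 against P14, Il1a ran from -0.564 to 0.446, Il1b from -0.258 to 0.539 and Nlrp3 from -0.685 to 0.107. The fits with fewer animals differ by construction, and the cause of the other changes was not tested. No paired analysis was possible because the numbers in the labels name animals within litters and each litter belongs to 1 treatment. Depth limits Il1rn most, with 6 to 29 counts in 4 P14 animals.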
